A study of Mus musculus with 4 samples.

Results

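B cell and immunoglobulin mRNA was examined in brown adipose tissue (BAT) of Sox4f/f and Sox4-MKO mice through 9 genes, chosen by symbol with earlier results of these data known: the light and heavy chain constant region genes Igkc, Ighm and Ighd, the receptor signalling genes Cd79a and Cd79b, the surface genes Ms4a1, Cr2 and Fcer2a, and the transcription factor gene Pax5. All 9 had a row among the 55287 gene symbols of the series. The values are FPKM (sequenced fragments divided by transcript length and by library depth), which the authors computed for each library. The study asked what loss of the transcription factor SOX4 changes in BAT. It sequenced mRNA of whole BAT from 15-week-old male mice on a C57BL/6 background, with 1 library per mouse and 2 mice per genotype. Sox4-MKO mice carried floxed Sox4 alleles together with Myf5-Cre, which acts in the Myf5-expressing precursors that give rise to brown adipocytes and skeletal muscle, whereas the controls were Sox4f/f littermates (labelled WT) that carried the same floxed alleles. Although the labels name the cell type as adipocytes, the material was whole tissue, in which fewer cells of a type and less RNA per cell cannot be told apart. The p-values given here set each difference against the spread between these 4 mice, pooled in part with the spread of other genes. Where a library is left out, its genotype keeps 1 mouse, so calls made then hold no spread between mice of that genotype.

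Sox4 mRNA of whole tissue did not follow the labels. Sox4 was at 1.98 and 1.06 FPKM in the libraries labelled Sox4f/f mouse 1 and mouse 2, and at 0.981 and 3.06 FPKM in those labelled Sox4-MKO mouse 1 and mouse 2, so that the highest value lay in a knockout library. Libraries are therefore called by their labels. The paper reports that SOX4 was much reduced in BAT of younger Sox4-MKO mice, by a measure of protein and not of mRNA. Why Sox4 mRNA was not lower in both Sox4-MKO libraries was not tested. Brown adipocyte genes were high in all 4 libraries (8 genes summed to between 8693 and 11831 FPKM). Spacing of the lowest FPKM values gave a rough depth of 12200000 to 16300000 fragments per library, with the library labelled Sox4-MKO mouse 2 the deepest. Over the 12877 genes whose mean FPKM exceeded 1 in either genotype (the FPKM limit), limma on log2(FPKM + 1) called 1024 genes higher and 1066 lower in the Sox4-MKO libraries at an unadjusted p under 0.05 (7.95% and 8.28%; 16.2% together), and 0 at an adjusted p under 0.05. The median difference between genotypes over these genes was -0.05 on the log2 scale.

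B cells carry a receptor made of membrane immunoglobulin, which binds antigen, and of the Cd79a and Cd79b chains, which signal. Once stimulated they can become plasma cells, which switch off most B cell surface genes and devote a large share of their mRNA to secreted immunoglobulin and its joining chain. Fat depots hold lymphocytes of their own, can lie close to lymph nodes and are perfused with blood. From which of these the immunoglobulin mRNA came was not tested.

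The constant region gene with the highest FPKM in every library was Igkc (chr6:70726435-70726966, plus strand, GRCm38), whose coding part begins as shown here because it is the stretch that every kappa light chain mRNA shares (the first 300 of 320 coding bases, chr6:70726435-70726734, plus strand, from GENCODE M21 transcripts).
Igkc: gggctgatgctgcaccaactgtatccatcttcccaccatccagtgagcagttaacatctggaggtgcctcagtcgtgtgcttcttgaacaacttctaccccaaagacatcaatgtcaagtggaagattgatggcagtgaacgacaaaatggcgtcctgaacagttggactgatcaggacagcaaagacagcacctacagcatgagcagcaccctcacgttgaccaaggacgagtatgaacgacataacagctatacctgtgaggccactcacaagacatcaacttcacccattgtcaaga
The kappa variable genes Igkv10-96 and Igkv10-94 are shown because Igkv10-96 was among the highest Igkv genes in every library, because Igkv10-94 was high in the library labelled Sox4-MKO mouse 2 alone, and because assignment of fragments between such neighbours is uncertain. Their second exons (chr6:68631963-68632260 and chr6:68704508-68704805, both on the minus strand, written 5′ to 3′ in the sense of the gene) had 94.6% identity, with the 16 differing bases in capitals.
Igkv10-96: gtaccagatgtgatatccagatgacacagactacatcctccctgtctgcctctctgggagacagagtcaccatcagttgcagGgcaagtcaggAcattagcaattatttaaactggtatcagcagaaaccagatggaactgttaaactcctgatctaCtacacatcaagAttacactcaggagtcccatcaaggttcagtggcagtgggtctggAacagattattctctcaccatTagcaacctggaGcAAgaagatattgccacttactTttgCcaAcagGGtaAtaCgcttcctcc
Igkv10-94: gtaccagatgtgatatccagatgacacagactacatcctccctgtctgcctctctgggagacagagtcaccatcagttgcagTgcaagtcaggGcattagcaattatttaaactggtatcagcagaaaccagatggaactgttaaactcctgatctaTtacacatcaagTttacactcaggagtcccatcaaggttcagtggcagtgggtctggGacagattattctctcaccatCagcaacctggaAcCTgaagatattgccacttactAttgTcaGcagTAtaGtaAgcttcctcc

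One library stood apart in immunoglobulin mRNA. In the library labelled Sox4-MKO mouse 2, the 9 genes summed to 672 FPKM, compared with 87.9 and 86.6 FPKM in the libraries labelled Sox4f/f and 84.7 FPKM in that labelled Sox4-MKO mouse 1. This was 7.78 times the mean of the other 3 libraries, which lay close to each other. Igkc and Ighm made up nearly all of the sum. Without Igkc, Ighm and Ighd, the remaining 6 genes summed to 2.35 times the mean of the other 3 libraries. Of the 9 genes, 6 had their highest value in the library labelled Sox4-MKO mouse 2, a position that it held for 14.9% of all genes tested. The other 3 libraries were each the highest for 1 of the 9 genes (Pax5 in Sox4f/f mouse 1, Cr2 in Sox4f/f mouse 2 and Ighd in Sox4-MKO mouse 1), compared with 30.4%, 23.0% and 31.7% of all genes tested. Only 2 of the 9 genes passed the FPKM limit that all genes tested passed, so these sets are unlike. These values were known when the genes were chosen, so they are given as a description, with no test.

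**Figure D1:**
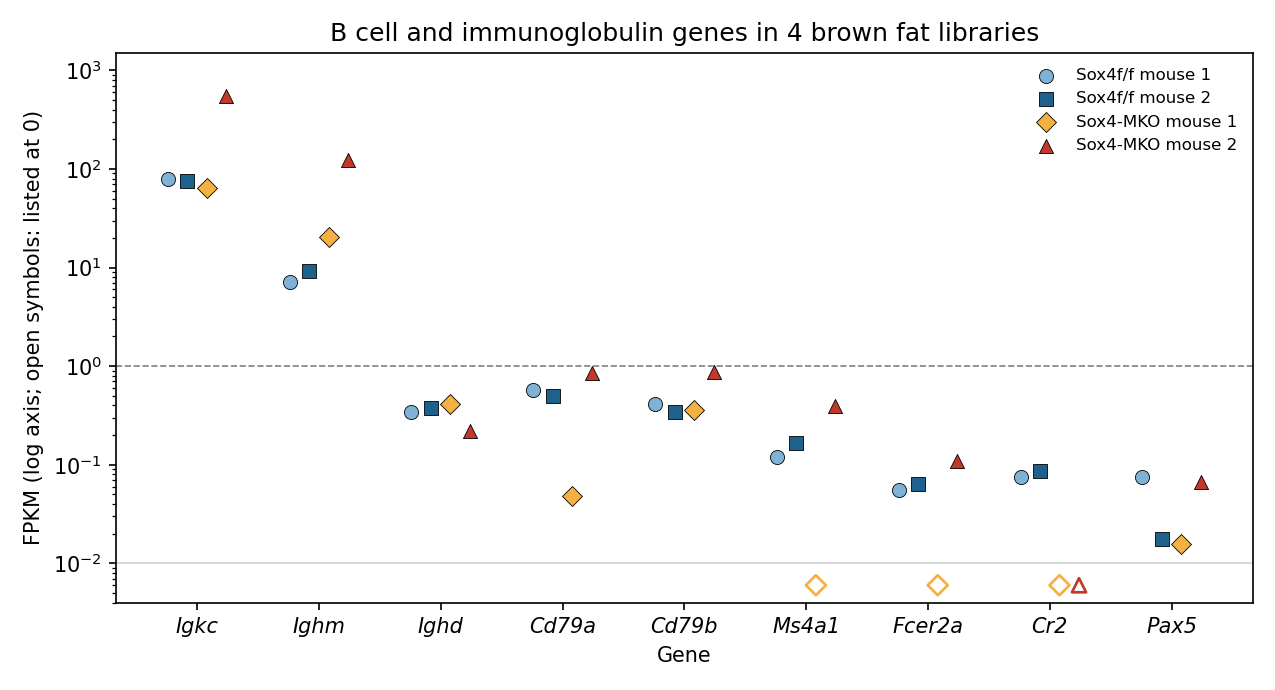
FPKM (log axis) of the 9 genes, with 1 symbol per library; open symbols below the solid line are genes listed at 0, and the dashed line marks 1 FPKM. Igkc at 547 and Ighm at 123 FPKM in the library labelled Sox4-MKO mouse 2 stand above the other 3 libraries, while the other 7 genes lie below 1 FPKM in every library.

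Igkc, which encodes the constant region of the kappa light chain, was at 79.1 and 75.8 FPKM in the libraries labelled Sox4f/f and at 63.6 and 547 FPKM in those labelled Sox4-MKO. The library labelled Sox4-MKO mouse 1 was thus the lowest of the 4 and that labelled Sox4-MKO mouse 2 the highest, and the groups overlapped. Group means were 77.5 ± 2.33 FPKM (SD, n = 2) in Sox4f/f and 305 ± 342 FPKM (SD, n = 2) in Sox4-MKO. The difference of 1.26 on the log2(FPKM + 1) scale turned to -0.28 without the library labelled Sox4-MKO mouse 2.

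Ighm (chr12:113418558-113422730, minus strand), which encodes the constant region of the IgM heavy chain, was at 7.16 and 9.22 FPKM in the libraries labelled Sox4f/f and at 20.2 and 123 FPKM in those labelled Sox4-MKO. Both Sox4-MKO libraries were above both Sox4f/f libraries. The difference was 2.49 on the log2(FPKM + 1) scale, 1.22 without the library labelled Sox4-MKO mouse 2 and 3.76 without that labelled Sox4-MKO mouse 1. Of the 9 genes, 2 (Ighm and Cr2) did not overlap between the genotypes, compared with 51.3% of all genes tested. Only Ighm lay higher in both Sox4-MKO libraries (21.7% of all genes tested did so). Most of the 9 genes, Cr2 among them, lay below the FPKM limit that all genes tested passed.

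Ighd (chr12:113406604-113416324, minus strand), the IgD heavy chain gene that mature unswitched B cells express from the same transcript as Ighm, did not move with Ighm. It was at 0.346 and 0.378 FPKM in the libraries labelled Sox4f/f and at 0.417 and 0.218 FPKM in those labelled Sox4-MKO, so that the library labelled Sox4-MKO mouse 2 was the lowest. These values rest on about 9, 8, 10 and 6 fragments, and their order was not detectable at this depth. The ratio of Ighm to Ighd was 20.7 and 24.4 in the Sox4f/f libraries and 48.5 in the library labelled Sox4-MKO mouse 1. In that labelled Sox4-MKO mouse 2 it was 564, a rough value given the 6 fragments of Ighd.

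The receptor signalling genes were low in all 4 libraries. Cd79a (chr7:24897381-24902197, plus strand) was at 0.575 and 0.504 FPKM in the libraries labelled Sox4f/f and at 0.0484 and 0.847 FPKM in those labelled Sox4-MKO, the lowest and the highest value lying within the same genotype. By the estimated depth and the longest annotated transcript, these values rest on about 11, 9, 1 and 20 fragments. The exact 95% Poisson interval reached up to 0.302 FPKM in the library labelled Sox4-MKO mouse 1 and began at 0.513 FPKM in that labelled Sox4-MKO mouse 2. Such intervals cover counting error only, and depend on the estimated depth. Cd79b (chr11:106311341-106314762, minus strand), its partner, was at 0.415 and 0.342 FPKM in the libraries labelled Sox4f/f and at 0.355 and 0.868 FPKM in those labelled Sox4-MKO. Here 3 libraries lay close together and that labelled Sox4-MKO mouse 2 was 2.09 times the highest of them.

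The surface genes and Pax5 were lower still. Ms4a1 (chr19:11249675-11266241, minus strand), which encodes the B cell surface protein CD20, was at 0.12 and 0.165 FPKM in the libraries labelled Sox4f/f, listed at 0 in that labelled Sox4-MKO mouse 1 and at 0.395 FPKM in that labelled Sox4-MKO mouse 2. The last value, about 20 fragments, was the highest of the 4 and 2.39 times the next. Fcer2a (chr8:3681737-3694175, minus strand), which encodes the low-affinity IgE receptor of mature B cells, was at 0.0553 FPKM (mouse 1) and 0.0639 FPKM (mouse 2) in Sox4f/f, listed at 0 in that labelled Sox4-MKO mouse 1 and at 0.110 FPKM in that labelled Sox4-MKO mouse 2. With at most 4 fragments in any library, no order between the libraries was detectable at this depth.

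Cr2 (chr1:195136811-195176716, minus strand), the complement receptor of mature B cells and follicular dendritic cells, was at 0.0751 and 0.0858 FPKM in the libraries labelled Sox4f/f and listed at 0 in both labelled Sox4-MKO. It was the only one of the 9 genes that lay lower in both Sox4-MKO libraries. The Sox4f/f values rest on about 6 and 7 fragments, and a count of 0 allows up to 0.0382 and 0.0296 FPKM (3 fragments) in the libraries labelled Sox4-MKO mouse 1 and mouse 2. Pax5 (chr4:44524757-44710487, minus strand), the transcription factor that maintains B cell identity, was at 0.0749, 0.0175, 0.0157 and 0.0664 FPKM in the order Sox4f/f mouse 1 and 2, Sox4-MKO mouse 1 and 2. Each genotype held 1 library with 8 or 9 fragments and 1 with about 2, so the groups overlapped.

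Between genotypes, 4 of the 9 genes had a higher mean log2(FPKM + 1) in the Sox4-MKO libraries and 5 a lower one, with a median difference of -0.007. Without the library labelled Sox4-MKO mouse 2, 2 were higher and 7 lower (median -0.08). Without that labelled Sox4-MKO mouse 1, 7 were higher and 2 lower (median 0.26). The direction of most members between genotypes therefore changed with which Sox4-MKO library was kept. Only Igkc and Ighm reached an averaged FPKM above 1 in either genotype, and both passed that limit in Sox4f/f as well.

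Other immunoglobulin genes, none of them among the 9, were compared to see how far the high values extended. Igha, which encodes the constant region of IgA, the class made mostly by plasma cells of mucosal tissue, was at 54.8 and 51.9 FPKM in the libraries labelled Sox4f/f and at 22.5 and 231 FPKM in those labelled Sox4-MKO. As with Igkc, the lowest and the highest library were both Sox4-MKO. The 8 heavy chain constant genes summed to 67.2 and 69.4 FPKM in the libraries labelled Sox4f/f and to 58.3 and 386 FPKM in those labelled Sox4-MKO. Within this sum, Igha took 81.7% and 74.8% in the Sox4f/f libraries, 38.7% in that labelled Sox4-MKO mouse 1 and 59.8% in that labelled Sox4-MKO mouse 2. Ighm took 10.7% and 13.3% in the Sox4f/f libraries, compared with 34.7% and 31.8% in the Sox4-MKO libraries. Thus the Igha share was lower and the Ighm share higher in both Sox4-MKO libraries, whereas the sum was high in 1 of them. Depth in counts is not known for these shares, and no test was run on them.

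**Figure D2:**
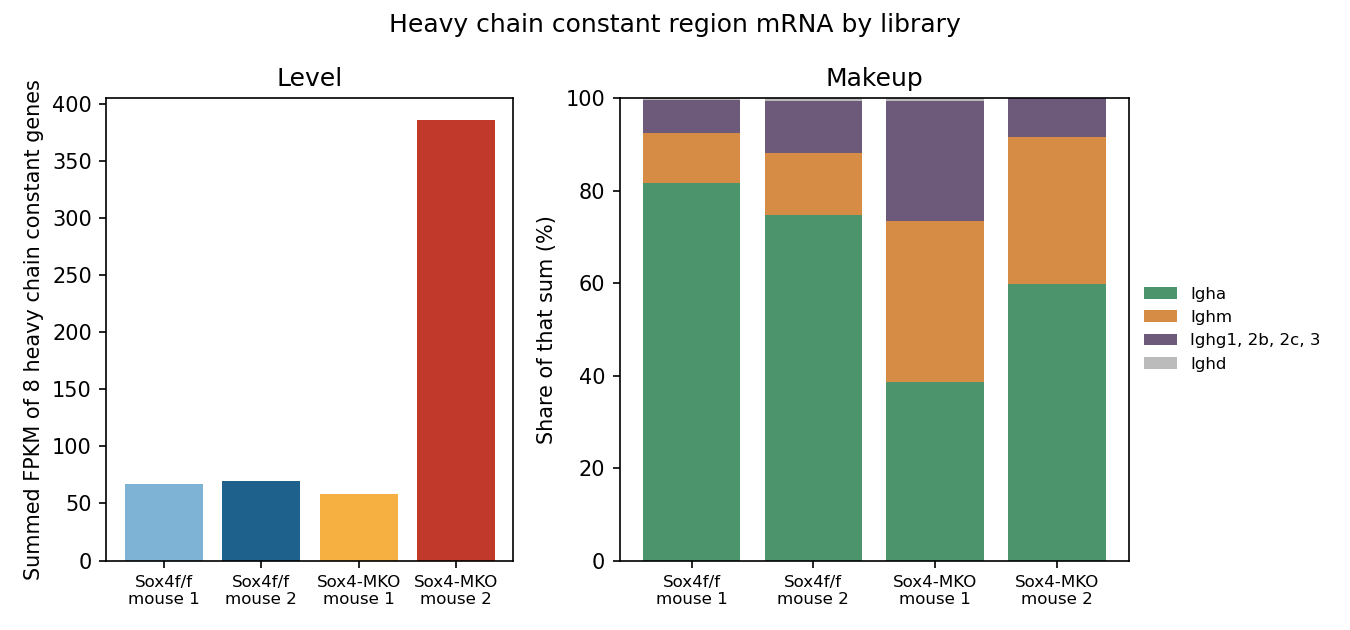
Summed FPKM of the 8 heavy chain constant genes in each library (left, bars from 0) and the share of that sum, in percent, held by Igha, Ighm, the 4 Ighg genes and Ighd (right; Ighe was listed at 0 throughout). The library labelled Sox4-MKO mouse 2 has the highest sum at 386 FPKM, and Igha holds a smaller share in both Sox4-MKO libraries (38.7% and 59.8%) than in the Sox4f/f libraries (81.7% and 74.8%).

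Genes of the IgG classes, which arise by class switching, together held 7.16% and 11.4% of the heavy chain sum in the Sox4f/f libraries, 25.9% in the library labelled Sox4-MKO mouse 1 and 8.27% in that labelled Sox4-MKO mouse 2. Ighg2b was at 2.28 and 3.71 FPKM in the libraries labelled Sox4f/f and at 12.6 and 12.7 FPKM in those labelled Sox4-MKO. It differed by 1.80 on the log2 scale (SE 0.22, limma adjusted p = 0.191), higher in both Sox4-MKO libraries and no different in size without either of them (1.80 and 1.79). Among light chains, Igkc held between 90.7% and 94.7% of the kappa and lambda constant sum in every library. Iglc3, a lambda constant gene, was listed at 0 in Sox4f/f mouse 1, and was at 0.405 FPKM in Sox4f/f mouse 2 and at 0.750 and 10.1 FPKM in the Sox4-MKO libraries.

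Variable genes, of which each B cell clone uses 1 per chain, were high in the same library. The 185 Ighv rows, among which Ighv5-8 and Ighv1-13 recur at 0, summed to 138 and 116 FPKM in the libraries labelled Sox4f/f. They summed to 119 FPKM in that labelled Sox4-MKO mouse 1 and 814 FPKM in that labelled Sox4-MKO mouse 2. The 160 Igkv genes summed to 188, 183, 137 and 1255 FPKM in the same order. Of the genes above 0 in any library, 67 of 90 Ighv and 65 of 80 Igkv genes had their highest value in the library labelled Sox4-MKO mouse 2. In that library 84 Ighv and 73 Igkv genes were above 0, compared with 36 to 53 Ighv and 38 to 49 Igkv genes in the others. The deepest library also lists more low genes, and 21 Ighv and 19 Igkv genes were above 0 in it alone.

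No single variable gene carried the excess. Igkv10-96 was the highest kappa variable gene in 3 libraries, at 29.5 and 29.1 FPKM in those labelled Sox4f/f and 181 FPKM in that labelled Sox4-MKO mouse 2, and its share of the Igkv sum there (14.4%) was close to that in the Sox4f/f libraries (15.7% and 15.9%). Its neighbour Igkv10-94, shown above, was at 1.96, 1.12 and 3.18 FPKM in the first 3 libraries and at 82.2 FPKM in that labelled Sox4-MKO mouse 2. Fragments may be split between such pairs in ways the FPKM do not show. The highest Ighv gene of that library, Ighv5-12, held 5.56% of its Ighv sum. The inverse of the summed squared shares, which counts variable genes as if all were equally abundant, was 37.1 for Ighv and 18.9 for Igkv, compared with 31.8 and 32.0 for Ighv and 19.2 and 18.3 for Igkv in the Sox4f/f libraries.

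The library labelled Sox4-MKO mouse 1 showed the most uneven use. Ighv9-3 held 22.5% of its Ighv sum, at 26.9 FPKM compared with 4.16 and 1.58 FPKM in Sox4f/f. Igkv1-135 held 21.8% of its Igkv sum, at 29.9 FPKM compared with 8.49 and 5.21 FPKM. Both genes were also high in the library labelled Sox4-MKO mouse 2, at 23.0 FPKM for Ighv9-3 and 38.0 FPKM for Igkv1-135, where they held smaller shares of larger sums. Its effective numbers were 11.7 for Ighv and 11.5 for Igkv, the lowest of the 4 libraries.

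**Figure D3:**
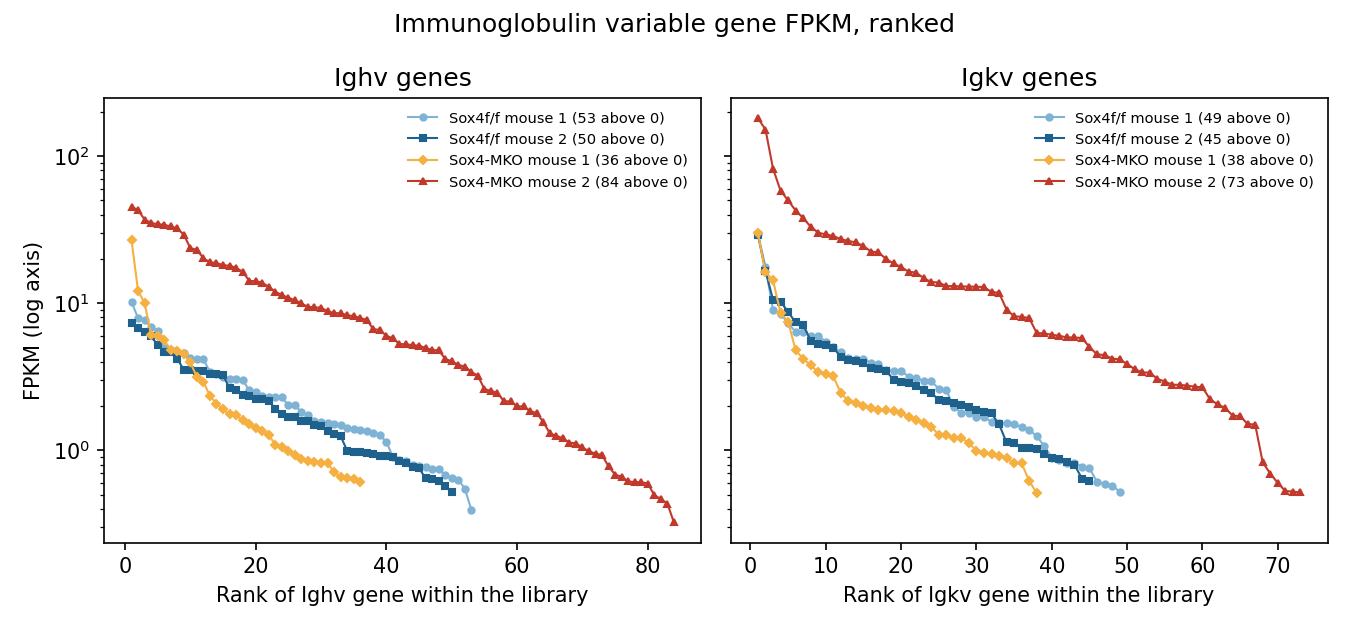
FPKM (log axis) of the Ighv (left) and Igkv (right) genes above 0 in each library, ranked from the highest within that library, with 1 line per library. The curve of the library labelled Sox4-MKO mouse 2 lies above the others at every rank and reaches 84 Ighv and 73 Igkv genes, while that labelled Sox4-MKO mouse 1 falls steepest and ends at 36 and 38.

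Plasma cell genes followed the constant region genes in part. Jchain, which joins IgA and IgM into polymers, was at 15.0 and 14.8 FPKM in the libraries labelled Sox4f/f and at 10.6 and 101 FPKM in those labelled Sox4-MKO, in the same order as Igha. Mzb1, a chaperone of immunoglobulin assembly, was at 0.435 and 0.101 FPKM in the libraries labelled Sox4f/f and at 0.346 and 2.90 FPKM in those labelled Sox4-MKO. Irf4, a factor needed for plasma cell formation, was at 5.63, 3.74, 4.54 and 27.8 FPKM in the order Sox4f/f mouse 1 and 2, Sox4-MKO mouse 1 and 2. In each of these genes the last library alone was high. By contrast Prdm1, the gene of the plasma cell regulator BLIMP-1, was at 0.857, 0.285, 0.753 and 0.348 FPKM. Tnfrsf17, the gene of the plasma cell survival receptor BCMA, was at 0, 0.138, 0.603 and 0.0890 FPKM. Neither was high in the library labelled Sox4-MKO mouse 2, and Prdm1, with about 62, 18, 50 and 30 fragments, was lower there than in those labelled Sox4f/f mouse 1 and Sox4-MKO mouse 1. Igha, Irf4, Prdm1, Tnfrsf17 and the variable genes named above were picked after their values were seen.

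Of the 17 plasma cell and switched immunoglobulin genes, 13 had their highest value in the library labelled Sox4-MKO mouse 2. The sum of the 17 there (504 FPKM) was 3.93 times the mean of the other 3. Igha (231 FPKM) and Jchain (101 FPKM) made up most of it, so it largely repeats the high immunoglobulin level. 12 passed the FPKM limit, and limma called 2 higher in Sox4-MKO and 0 lower at an unadjusted p under 0.05 (7.95% and 8.28% of all genes tested), and 0 after adjustment. Of the 12, Mzb1 and Iglc3 passed the limit only through the Sox4-MKO libraries. Over all 17 genes the median difference was 0.67 on the log2 scale. Over the genes passing the limit in each case, the median was 0.14 without the library labelled Sox4-MKO mouse 2 and 2.01 without that labelled Sox4-MKO mouse 1. It was 1.02 without Sox4f/f mouse 1, 0.89 without Sox4f/f mouse 2 and 0.99 with every library kept.

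Other B cell genes were low, and did not share the high level as a sum. The 30 further genes of B cell identity and receptor signalling summed to 21.8 and 21.0 FPKM in the libraries labelled Sox4f/f and to 28.4 and 26.6 FPKM in those labelled Sox4-MKO. In the library labelled Sox4-MKO mouse 2 the sum was 1.12 times the mean of the other 3, although Cd37 and Swap70, which other cells also express, took a large share of it. Of the 30 genes, 14 had their highest value there, compared with 14.9% of all genes tested. Most of the 30 lay below the FPKM limit that all genes tested passed, so these sets are unlike. Fcrl1, a receptor-like surface gene of B cells, was at 0, 0.0402, 0 and 0.334 FPKM, and Pou2af1, a coactivator of immunoglobulin transcription, at 0.0948, 0.257, 0.0771 and 0.628 FPKM. Ly6d, a surface gene of early B cells and epithelia, was at 0.533, 0.766, 0.263 and 1.84 FPKM. These 3 genes, picked after their values were seen, rest on 12 to 26 fragments in the library labelled Sox4-MKO mouse 2 and on at most 8 in any other. Cd22, an inhibitory coreceptor of B cells, was at 0.202, 0.318, 0.0862 and 0.257 FPKM in the same order of libraries. It was highest in that labelled Sox4f/f mouse 2 and lowest in that labelled Sox4-MKO mouse 1, and the groups overlapped. Of the 30 genes, 8 passed the FPKM limit and 2 were called higher at an unadjusted p, compared with 7.95% of all genes tested. These were Cd37 (0.70 on the log2 scale, SE 0.17, limma adjusted p = 0.217) and Cd40 (0.77, SE 0.29, limma adjusted p = 0.299). Both are also expressed by myeloid cells, and Cd40 passed the limit only through the Sox4-MKO libraries, as did 3 other genes of the 8. Over the genes passing the limit in each case, the median difference was 0.18 with every library kept. It was 0.33 or 0.02 with Sox4f/f mouse 1 or mouse 2 left out. Leaving out Sox4-MKO mouse 1 or mouse 2 gave 0.51 or 0.43.

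Genes of B cell precursors and of the germinal centre reaction were low, apart from Bcl6 and Fas, which many cells express. The recombinase genes Rag1 and Rag2 were listed at 0 in all 4 libraries. None of the 7 precursor genes reached the FPKM limit. Bcl6, a transcriptional repressor, was at 54.5, 59.2, 41.5 and 12.5 FPKM, lowest in the library labelled Sox4-MKO mouse 2 (difference -1.27, SE 0.56, limma adjusted p = 0.350). The difference was -0.44 without that library and -2.10 without that labelled Sox4-MKO mouse 1.

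The ratio of immunoglobulin mRNA to B cell receptor mRNA differed between libraries. Igkc was 138 and 150 times Cd79a in the libraries labelled Sox4f/f, 1315 times in that labelled Sox4-MKO mouse 1, where Cd79a rests on about 1 fragment, and 646 times in that labelled Sox4-MKO mouse 2. Against Cd79b the ratios were 191, 221, 179 and 630. With Cd79b, which had at least 6 fragments in each library, only the library labelled Sox4-MKO mouse 2 stood apart.

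Other cell types that a BAT sample could hold were measured beside these genes, and their part in the result was not tested. The 26 T cell genes summed to 19.6, 18.0, 17.1 and 32.1 FPKM, so that the library labelled Sox4-MKO mouse 2 was again the highest, at 1.76 times the mean of the other 3, and 25 or all 26 genes were above 0 in each library. Cd3e, a chain of the T cell receptor complex, was at 1.56, 0.625, 0.925 and 2.56 FPKM. Trac, the T cell receptor alpha constant gene, was at 2.56, 2.79, 5.93 and 7.07 FPKM, higher in both Sox4-MKO libraries (difference 1.03, SE 0.18, limma adjusted p = 0.196). It was the 1 gene of the 10 tested that was called higher at an unadjusted p, compared with 7.95% of all genes tested. The 12 natural killer and cytotoxic genes summed to 27.7, 16.4, 15.8 and 28.7 FPKM, high in 1 library of each genotype.

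Genes of the lymph node scaffold were not high in the library labelled Sox4-MKO mouse 2 as a list. The 10 listed summed to 64.7, 80.1, 74.1 and 76.6 FPKM, mostly from Cr1l and Ltbr, which many cells express. Of the genes that mark lymph node vessels, Madcam1 and Chst4 were listed at 0 in all 4 libraries, and Glycam1 was at 0.229 FPKM in the library labelled Sox4-MKO mouse 2 and at 0 in the others. Ccl21a, a chemokine of lymphatic vessels and T cell zones, was at 1.53, 3.17, 2.91 and 2.37 FPKM. Ccl19, a chemokine of T cell zones, was at 0.175, 0, 1.03 and 0.769 FPKM, higher in both Sox4-MKO libraries and below the FPKM limit. Cxcl13, the chemokine that draws B cells into follicles, was at 1.54 and 1.90 FPKM in the libraries labelled Sox4f/f and at 7.74 and 14.7 FPKM in those labelled Sox4-MKO. Its difference was 2.11 on the log2 scale (SE 0.33, limma adjusted p = 0.196), 1.69 without the library labelled Sox4-MKO mouse 2 and 2.53 without that labelled Sox4-MKO mouse 1, so that it was higher in both Sox4-MKO libraries.

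Genes shared by all leukocytes were higher in both Sox4-MKO libraries as a sum, by less. The 10 pan-leukocyte genes summed to 71.7 and 59.4 FPKM in the libraries labelled Sox4f/f and to 95.7 and 115 FPKM in those labelled Sox4-MKO. Of these genes, 5 were called higher at an unadjusted p, compared with 7.95% of all genes tested, and 0 after adjustment. Their median difference was 0.56, compared with -0.05 over all genes tested. The median of the 10 genes was 0.62 or 0.42 with Sox4f/f mouse 1 or mouse 2 left out. Leaving out Sox4-MKO mouse 1 or mouse 2 gave 0.65 or 0.52. Over all genes tested the median stayed between -0.09 and -0.004 in these settings. Ptprc, which encodes CD45, was at 4.46, 4.47, 6.82 and 7.87 FPKM in the same order (difference 0.61, SE 0.16, limma adjusted p = 0.229). Relative to this sum, the 9 genes in the library labelled Sox4-MKO mouse 2 were 4.90 times the mean of the other 3. Among 18 myeloid genes, which summed to 138, 187, 294 and 276 FPKM, 9 of the 14 tested were called higher at an unadjusted p (7.95% of all genes tested; median difference 0.80). Without moderation of the variances 1 of the 14 was called higher, compared with 553 of all 12877 genes tested. The median difference of the myeloid genes was 0.62 or 1.01 with Sox4f/f mouse 1 or mouse 2 left out. Leaving out Sox4-MKO mouse 1 or mouse 2 gave 0.71 or 0.81. The 8 MHC class II genes, which B cells share with macrophages and dendritic cells, summed to 477, 561, 603 and 713 FPKM. Of the 7 tested, 2 were called higher (7.95% of all genes tested), with a median difference of 0.33. The median of the MHC class II genes was 0.23 or 0.44 with Sox4f/f mouse 1 or mouse 2 left out. Leaving out Sox4-MKO mouse 1 or mouse 2 gave 0.38 or 0.28.

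Red blood cell and lymphatic genes had another order. The 6 red blood cell genes summed to 842, 1230, 1555 and 1019 FPKM, with the library labelled Sox4-MKO mouse 1 the highest. Of the 5 tested, 0 were called at an unadjusted p, compared with 16.2% of all genes tested. Lymphatic endothelial genes summed to 7.16, 7.93, 17.0 and 10.7 FPKM, also highest in that library. Of the 3 tested, 1 was called higher at an unadjusted p (7.95% of all genes tested), Pdpn (0.87 on the log2 scale, SE 0.23, limma adjusted p = 0.228). Among the factors that B cells share with adipocytes, Ebf1, a factor of B cell and adipocyte development, was at 33.5, 42.3, 23.6 and 48.6 FPKM, and overlapped between the genotypes. Ebf2, a factor of brown fat fate, was at 24.4, 25.6, 17.1 and 17.8 FPKM, lower in both Sox4-MKO libraries (difference -0.50, SE 0.12, limma adjusted p = 0.219).

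**Figure D4:**
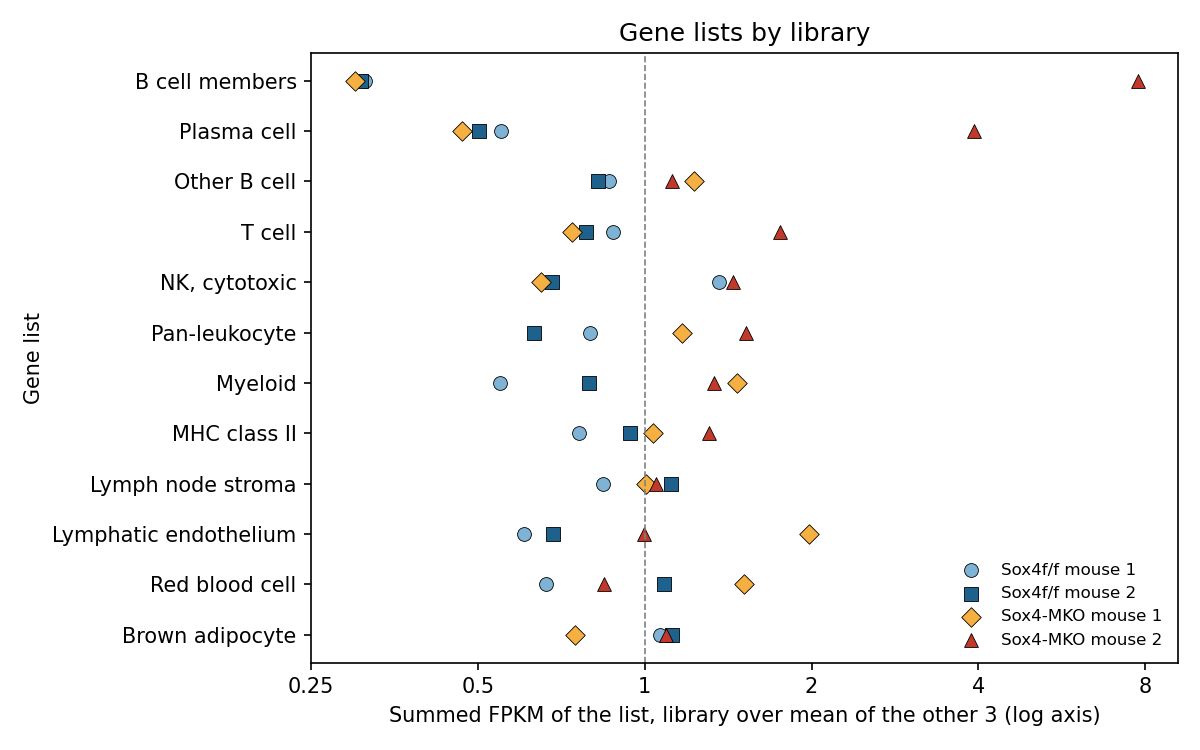
Summed FPKM of 12 gene lists in each library divided by the mean of the other 3 libraries (log axis), with 1 symbol per library and the dashed line at 1. The 9 B cell genes (7.78) and the plasma cell list (3.93) lie far right in the library labelled Sox4-MKO mouse 2, whereas for the other 10 lists drawn that library lies between 0.842 and 1.76. The plasma cell list includes switched immunoglobulin constant genes, so it is not separate from the immunoglobulin level. The germinal centre list, led by Bcl6, is not drawn (0.415), nor are the precursor genes and the factors shared with adipocytes.

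Across the whole table, immunoglobulin genes made up most of the genes that stood far above in the library labelled Sox4-MKO mouse 2. There, 128 of the 12877 genes tested (0.994%) exceeded the highest of the other 3 libraries by at least 1 on the log2(FPKM + 1) scale, and 94 of the 128 (73.4%) were immunoglobulin genes. Of the 153 immunoglobulin genes tested, many passed the FPKM limit only through this library, so the 94 are not counted against the 153. In the libraries labelled Sox4f/f mouse 1, Sox4f/f mouse 2 and Sox4-MKO mouse 1, 60, 49 and 445 genes lay as far above (0.466%, 0.381% and 3.46%), of which 5, 3 and 2 were immunoglobulin genes. The library labelled Sox4-MKO mouse 1 thus had more such genes, but few immunoglobulin genes among them.

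Genes whose pattern over the 4 libraries was nearest to the mean of Igkc and Ighm were sought by the Euclidean distance of their centred log2(FPKM + 1) values. Of the 10 nearest, at distances of 0.234 to 0.590, 7 were immunoglobulin genes (Iglc3, Igkv4-57-1, Ighv1-49, Ighv1-11, Ighv1-82, Ighv5-16 and Ighv1-84) and 2 were gene models without a given name (Gm48017 and Gm43380). The nearest was Lyst, which encodes a regulator of lysosome traffic, at 2.94, 3.15, 3.61 and 37.1 FPKM. With 4 libraries, any gene high in the library labelled Sox4-MKO mouse 2 alone lies near this pattern. Most of the 7 immunoglobulin genes passed the FPKM limit only through the Sox4-MKO libraries. Igkc and Ighm were chosen with their values known, so this search is given as a description, with no test.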

How the data were processed

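Processed tables for 4 mouse BAT libraries (2 Sox4f/f, 2 Sox4-MKO) were used, each with 55387 rows of FPKM. These FPKM were deposited by the authors as computed per library. The submitters' processing notes name Cufflinks 2.1.1, Cuffdiff and mm10 without giving their roles; the aligner and the annotation are not given in the sources used here. The labels name a column RNA kit and a stranded mRNA kit, whereas the methods name TRIzol and an unstranded kit, so strand use is uncertain, and reads of overlapping genes cannot be told apart. FPKM are not counts, so that no count test was used.

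Rows sharing a symbol were kept as separate rows in the fit. Rows whose mean FPKM exceeded 1 in either genotype entered a two-sided limma fit (3.58.1, R 4.3.3, trended eBayes) of log2(FPKM + 1) on genotype alone, with Benjamini-Hochberg adjustment over 12877 rows. The step was tested on simulated data. Fold changes on this scale understate those of low genes. An exact permutation test of 2 against 2 cannot go below 0.333. The count of fragments was estimated from the spacing of low FPKM values in long single-transcript genes; the starting points agreed in 4 to 8 of 9 trials, so depth is approximate, and fragment numbers are least certain for short genes such as Igkc. A floor of 3 fragments and exact Poisson intervals at 95% were used.

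Coordinates and sequences came from GENCODE M21 on GRCm38, matched by symbol (9 of 9 genes). The 9 genes and the 14 further lists (176 genes, of which 1 had no row) were chosen with earlier results of these data known. Named genes were all 9, Sox4, from each list the first 2 and the 3 with the largest difference among those passing the limit, and the 10 nearest in pattern; others were named after their values were seen. Some genes that this rule names are not reported here. Alternatives were other pseudocounts, scalings and FPKM limits, a replicate block, unmoderated limma and leaving out each library.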

Additional observations from a re-analysis of the deposited data

How the results depend on the processing

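The high summed FPKM of the 9 genes in the library labelled Sox4-MKO mouse 2 kept its direction under the alternatives run for it, which did not include quantile normalization. This sum, 7.78 times the mean of the other 3 libraries, was 8.16 times after scaling to a common median. It was 8.59 after rescaling without mitochondrially encoded genes and Ucp1, 4.90 relative to the pan-leukocyte sum, and 7.70 to 7.85 when each other library was left out. Without the immunoglobulin members it was 2.35, a value that rests on genes below 1 FPKM and says nothing of the immunoglobulin level. The median difference of the 9 genes between genotypes, near 0, was -0.25 with a pseudocount of 0.01, 1.88 over the 2 genes with an averaged FPKM above 5, and ranged from -0.0835 to 0.263 when each library was left out. Its sign turned without Sox4f/f mouse 1 (0.02), without Sox4-MKO mouse 1 and with an FPKM limit of 0.1 (0.13). With no FPKM limit, or limits of 0.1 and 5, 152, 152 and 81 genes lay far above in the library labelled Sox4-MKO mouse 2, 104, 104 and 63 of them immunoglobulin genes (limits chosen after seeing the data).

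Genes called at an unadjusted p numbered 2090, and 849 to 2394 when each library was left out, with 0 to 5 after adjustment. Rescaling without mitochondrially encoded genes and Ucp1 turned the split of 1024 higher and 1066 lower into 1322 and 745. A replicate block gave 1908 calls and left the median of the 9 genes at -0.007. Same-numbered mice did not deviate together (r = -0.0122 across 12877 genes, 2 pairs). With 2 mice per genotype the deviations mirror each other, so this cannot show whether same-numbered mice shared a litter or preparation. Signs were compared for medians and for Igkc and Ighm, not for each called gene. Among values with no test, the Igkc difference turned to -0.28 without the library labelled Sox4-MKO mouse 2, and 6 of 13 list medians changed sign under at least 1 alternative (T cell to -0.15, cytotoxic to 0.39, red blood cell to -0.06, lymph node stroma to -0.07, germinal centre to 0.06, shared factors to 0.18). With 2 mice per genotype and few fragments for 7 of the 9 genes, differences of Fcer2a and Pax5 between genotypes were not detectable at this depth.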

Other observations

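Besides immunoglobulin genes, a small group of other genes was far above the other 3 libraries in the library labelled Sox4-MKO mouse 2, picked here after their values were seen. Zhx2, a transcriptional repressor gene, was at 12.9, 11.0, 7.95 and 29.3 FPKM in the order Sox4f/f mouse 1 and 2, Sox4-MKO mouse 1 and 2. Cish, an inhibitor of cytokine signalling, was at 8.44, 13.8, 8.60 and 30.8 FPKM. Ptges, a prostaglandin E synthase, was at 6.60, 9.33, 10.2 and 23.4 FPKM. S100a8, a neutrophil gene, was at 1.31, 0.756, 1.73 and 4.59 FPKM. Among small RNAs, Scarna3a was at 207 FPKM and Snora81 at 36.8 FPKM in that library, and both were listed at 0 in the other 3; for such short genes FPKM are large for few fragments.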
